A study of Homo sapiens with 51 samples.

Results

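The OVOL2 response of PANC1 cells that also carried the transactivator M2rtTA was measured in 6 libraries, out of 51 in the series. They were taken by their titles: 3 libraries of PANC1 transduced with a lentiviral OVOL2 open reading frame together with M2rtTA, and 3 of PANC1 transduced with mCherry and M2rtTA. PANC1 is an established human pancreatic ductal adenocarcinoma cell line, and mCherry, a red fluorescent protein, was the control cargo. M2rtTA is a reverse tetracycline transactivator that switches on tetracycline-inducible promoters in the presence of doxycycline. Per the labels, both groups were infected at a multiplicity of 2 in 8 µg/ml polybrene, both received 2.5 µg/ml puromycin and 0.6 µg/ml doxycycline from the next day, and total RNA was collected after 6 days in total, so virus, transactivator, drug selection and doxycycline were common to OVOL2 and control cells. The transduced cells are a bulk population in which the share of cells carrying OVOL2 is not given, so more cells with a transcript and more transcript per cell cannot be told apart. The labels call the libraries triplicates without saying whether the 3 came from separate cultures, so p-values measure the spread between these libraries, which may be technical. The other groups used for comparison were PANC1 without M2rtTA (untreated, mCherry and OVOL2) and the 5 groups each of KP4 and PK45H. KP4 and PK45H are a pair of further pancreatic cancer lines, and every group had 3 libraries. The labels give the transduced groups among these the same multiplicity, polybrene, puromycin, doxycycline and 6 days. For untreated cells they give 6 days and no virus, polybrene, puromycin or doxycycline. A comparison with untreated cells therefore differs in these drugs as well as in virus. Untreated HPAFII and untreated PATU8988S, also 3 libraries each, entered only the counts of single-library spikes over the series.

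OVOL2 is a zinc-finger transcription factor of epithelial cells that acts mainly as a repressor. It is known for holding down ZEB1 and other drivers of the epithelial-to-mesenchymal transition (EMT), in which cells lose junctions and apical-basal polarity and take up vimentin, matrix and motility genes. ZEB and SNAI factors in turn repress epithelial genes such as CDH1, EPCAM, ESRP1 and CRB3 through E-box letters in their promoters. PANC1 is commonly described as a mesenchymal-like, poorly differentiated pancreatic cancer line.

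Expression was read by PLATE-seq, a 3′-end method in which each well is barcoded before pooling. The 6 libraries held 3925654 to 7117704 counts over 17192 to 18519 genes with a count. All 10 pancreatic ductal markers, KRT8, KRT18, KRT19, KRT7, SOX9, CFTR, SLC4A4, MUC1 and SPP1 among them, had more than 3 counts in at least 1 of the 6 libraries. The acinar genes PRSS1, CPA1 and CTRB2, the lymphoid gene NKG7 and the endothelial genes TEK and CLDN5 had 0 counts in all 6. More than 3 counts in at least 1 library were, however, found for 5 of 13 acinar, 6 of 10 leukocyte and 5 of 7 endothelial markers. The same held for 10 of 14 endocrine and neuroendocrine markers and 7 of 10 fibroblast markers. Passing this low count is therefore not specific to ductal markers. The share of counts from the 13 mitochondrially encoded messenger RNAs was 25.0 to 25.3% in the mCherry libraries and 30.3 to 31.5% in the OVOL2 libraries, so the groups did not overlap in this measure. Levels below are CPM (counts scaled to a common total) on TMM-scaled library totals, with replicates 1, 2 and 3 in that order.

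The introduced gene was checked first. OVOL2 itself had 7, 3 and 2 counts in the mCherry libraries and 6, 20 and 9 in the OVOL2 libraries, which is 1.57, 0.591 and 0.414 against 1.5, 2.96 and 2.2 CPM. The groups overlapped, because mCherry replicate 1 stood above OVOL2 replicate 1. The fitted log2 fold change was 1.4 (SE 0.74, adjusted p = 0.244), and an exact two-sided permutation test of log2(CPM + 1) gave p = 0.2, where 3 against 3 libraries cannot go below 0.1. A difference in the OVOL2 transcript was therefore not shown at this depth, and whether the table's OVOL2 entry counts transcripts of the introduced reading frame is not given in the sources used here. The direction of every result below rests on the library labels.

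OVOL2 changed 1843 of the 13218 genes tested (13.9%) at a Benjamini-Hochberg adjusted p below 0.05 in edgeR's quasi-likelihood test. Of these, 762 were higher (5.76% of genes tested) and 1081 were lower (8.18%). The median absolute log2 fold change was 0.95 among the higher and 1.05 among the lower genes. A change of 2-fold or more was reached by 342 higher genes (2.59%) and 580 lower genes (4.39%), and one of 4-fold or more by 92 and 135. The 3 OVOL2 libraries lay entirely above the 3 mCherry libraries for 733 of the 762 higher genes, against 14.4% of all genes tested, and entirely below for 1039 of the 1081 lower genes, against 16.7%. The median log2 fold change of all genes tested was 0.02, so the scaling left the centre of the distribution near 0. When any 1 of the 6 libraries was left out, 1241 to 1555 genes passed, and 878 of the 1843 passed with the same sign in every such fit.

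**Figure D1:**
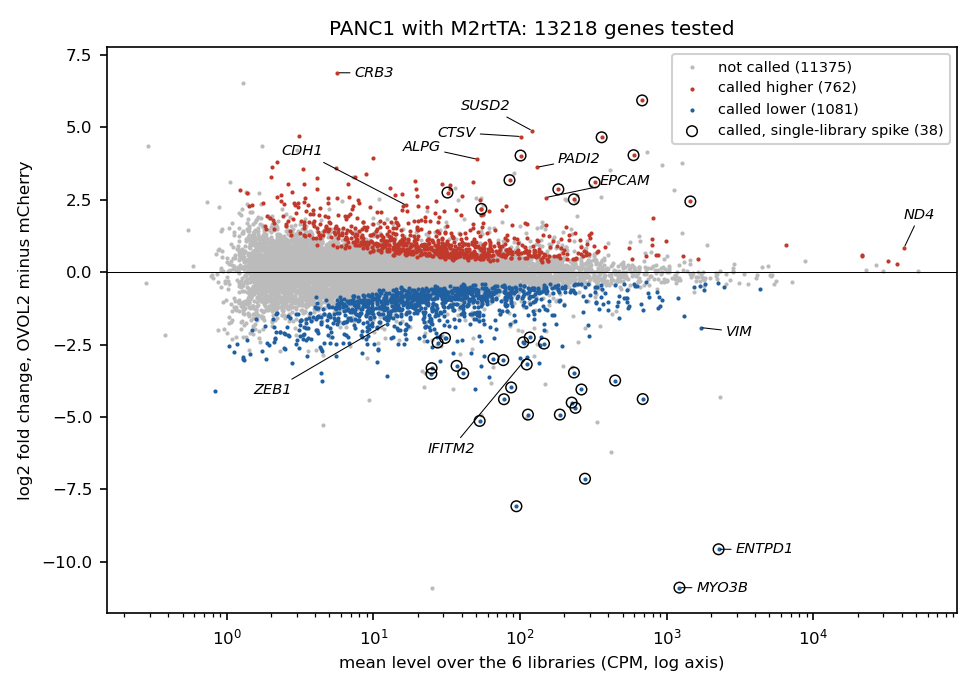
Log2 fold change (OVOL2 minus mCherry, PANC1 with M2rtTA) against mean level over the 6 libraries in CPM on a log axis, 1 point for each of the 13218 genes tested. Red and blue points are the 762 higher and 1081 lower genes, and black rings mark the 38 called genes in which a single library stood far above its mates. CRB3 is placed at its fitted value, which rests on 1 count in the mCherry libraries.

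The rising genes with the smallest p had varied roles. CTSV, which encodes the lysosomal cysteine protease cathepsin V, stood at 7.86, 8.08 and 6.83 CPM in the mCherry libraries and at 178, 211 and 199 in the OVOL2 libraries. This was a log2 fold change of 4.69, SE 0.18, adjusted p = 3.35e-09. SUSD2, a sushi-domain membrane protein, went from 10.1, 5.71 and 7.87 to 183, 257 and 260.3 CPM (log2 fold change 4.89, SE 0.22, adjusted p = 1.17e-08). ALPG, an alkaline phosphatase normally of germ cells and placenta, went from 6.96, 7.29 and 4.97 to 82, 116 and 89.4 CPM (log2 fold change 3.9, SE 0.22, adjusted p = 1.16e-07). In each of these genes every OVOL2 library lay more than 10-fold above every mCherry library. ALPG is a near copy of other alkaline phosphatase genes, with which reads can be shared. It averaged 20.8 CPM (SD 1.18, n = 3) in untreated PANC1 without virus, above every mCherry library, so its rise over untreated cells was smaller. PADI2, a peptidylarginine deiminase that converts arginine to citrulline in proteins, went from 16.8, 25.6 and 16.1 to 187, 273 and 264 CPM (log2 fold change 3.62, SE 0.24, adjusted p = 5.9e-07). EPCAM, the epithelial cell adhesion molecule, rose from 43.6, 48.9 and 36.4 to 232, 290.0 and 249 CPM (log2 fold change 2.58, SE 0.16, adjusted p = 3.29e-07), and untreated PANC1 without virus averaged 35.3 CPM (SD 6.06, n = 3). KDF1, a regulator of keratinocyte differentiation, rose from 6.74, 6.89 and 5.38 to 49.5, 49.4 and 58.8 CPM (log2 fold change 3.05, SE 0.20, adjusted p = 3.89e-07). The remaining 6 of the 12 rising genes with the smallest p were SYT5 (synaptotagmin 5, 3.12), NID1 (the basement membrane linker nidogen 1, 2.51), ABTB2 (2.25), TNNI3 (troponin I, 2.16), MAP7 (a microtubule-binding protein of epithelial cells, 2.06) and VAMP8 (a vesicle SNARE, 1.35), all as log2 fold changes with adjusted p-values from 1.46e-06 to 5.44e-06. The 12 were chosen among genes whose groups do not overlap, and each passed in all 6 fits that left a library out.

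Among further genes with a large change, RAB17, a small GTPase of polarised epithelial trafficking, went from 1.57, 1.38 and 0.621 to 13.5, 14.8 and 28.1 CPM (log2 fold change 3.95, SE 0.54, adjusted p = 0.000216), and BEX4 from 0.449, 1.18 and 0.828 to 8.75, 11.5 and 10.5 CPM (log2 fold change 3.59, SE 0.41, adjusted p = 5.46e-05). The BEX4 control rests on 2, 6 and 4 counts. In PANC1 without M2rtTA, BEX4 averaged 3.82 CPM with mCherry and 5.4 with OVOL2 and was not called (log2 fold change 0.50, adjusted p = 0.491). The effects with and without M2rtTA differed by 3.09 (SE 0.55, adjusted p = 0.0432). CRB3, the Crumbs polarity protein, had 1, 0 and 0 counts in the mCherry libraries and 8.0, 14.2 and 11.7 CPM in the OVOL2 libraries, 1 against 176 counts in all. The ratio of the count rates was 162.1, with a 95% exact counting interval of 28.7 to 6439 that covers counting error alone. Its control level is thus too low to give the size of the rise with any precision, although no mCherry library came near the OVOL2 libraries.

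**Figure D2:**
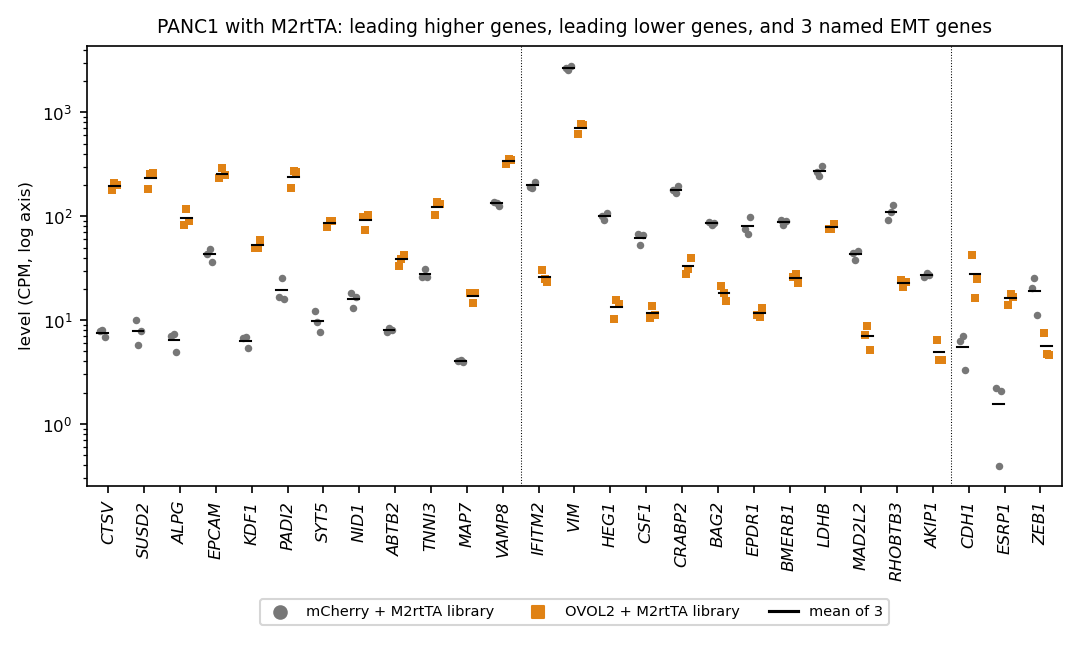
Level in CPM on a log axis of the 12 rising and the 12 falling genes with the smallest p, and of CDH1, ESRP1 and ZEB1. Grey circles are the 3 mCherry libraries, orange squares the 3 OVOL2 libraries and black lines the means of 3, and the 24 leading genes, 12 in each direction, were chosen among those whose groups do not overlap.

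The falling genes with the smallest p likewise had varied roles. IFITM2, an interferon-induced membrane protein that restricts viral entry, fell from 193, 188 and 214 CPM in the mCherry libraries to 30.2, 24.7 and 23.2 in the OVOL2 libraries (log2 fold change −2.93, SE 0.15, adjusted p = 4.02e-08). VIM, the intermediate filament protein of mesenchymal cells, fell from 2666, 2575 and 2826 to 621, 767 and 750.1 CPM (log2 fold change −1.92, SE 0.11, adjusted p = 1.31e-07). For both genes the highest OVOL2 library lay far below the lowest mCherry library, and IFITM2 has near-identical copies (IFITM1 and IFITM3) with which reads can be shared. HEG1, a transmembrane mucin-like receptor, went from 102, 91.8 and 108 to 10.2, 15.7 and 14.4 CPM (log2 fold change −2.89, SE 0.18, adjusted p = 2.68e-07). CSF1, the macrophage growth factor, went from 67.6, 53.2 and 66 to 10.5, 13.8 and 11.2 CPM (log2 fold change −2.39, SE 0.16, adjusted p = 4.48e-07). CRABP2, which carries retinoic acid to the nucleus, went from 178, 167 and 196 to 27.7, 31.1 and 39.8 CPM (log2 fold change −2.45, SE 0.17, adjusted p = 1.12e-06), and was already at a higher mean of 363 CPM (SD 59, n = 3) in untreated PANC1. The other falling genes of the 12 with the smallest p were BAG2 (an HSP70 co-chaperone, −2.22), EPDR1 (−2.79), BMERB1 (−1.79), LDHB (lactate dehydrogenase B, −1.79), MAD2L2 (a subunit of translesion polymerase zeta, −2.59), RHOBTB3 (−2.27) and AKIP1 (−2.47), as log2 fold changes. These 12, too, were chosen among genes without overlap. B3GALNT2, a glycosyltransferase, had the largest fitted fall outside the single-library spikes described below (−4.04), but its mCherry levels were 48.1, 223 and 6.42 CPM against 5.5, 5.47 and 5.86 in OVOL2, and the change was −2.27 in the fit without mCherry replicate 2.

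Promoter letters were compared because OVOL proteins are known to bind a core CCGTTA, and ZEB and SNAI factors the E-box CACCTG. Of the 13218 genes tested, 10429 had at least 1 window in RefSeq's promoter set for GRCh38.p14 (250 bases before to 50 after a transcript start), 15260 windows in all. CCGTTA on either strand was in 3.85% of these windows, in 6.37% of the windows of lower genes and in 2.18% of those of higher genes. Among the 285 genes that fell both with and without M2rtTA, a set looked at after these values were seen, 34 of the 224 genes with a window (15.2%) held it, against 5.33% of all tested genes with a window. CACCTG on either strand was in 18.5% of all windows, 25.2% of those of higher genes, 17.3% of those of lower genes, and 31.8% of those of genes higher with and without M2rtTA. Over the whole set of 35116 RefSeq windows the shares were 3.07% for CCGTTA and 20.6% for CACCTG. These shares are descriptions, the letters of one motif cannot overlap those of the other, and a match is not a bound site. The following 30-base stretches are shown to give the letters around CCGTTA (capitals) for genes that fell with and without M2rtTA, in order of p, and for ZEB1. Coordinates are GRCh38.p14, and the strand is that of the printed letters.
AAAS, chr12:53321610-53321639, minus strand: cgtccttctttcCCGTTAgtcttttcttca
NRG2, chr5:140043504-140043533, minus strand: ggtgccaggagcCCGTTAtctcttcttcgc
TSPAN4, chr11:844117-844146, minus strand: gaccccaggccaCCGTTActcagggcccct
CCDC88A, chr2:55419841-55419870, minus strand: gcggttctgaggCCGTTActccggcttctc
BUB1B, chr15:40161026-40161055, plus strand: gaccgcgcgggaCCGTTAaatttgaaactt
MRPL28, chr16:370656-370685, plus strand: cagctcaaggcaCCGTTAgctacgtgcggc
CDCA7, chr2:173354761-173354790, plus strand: cgccatgtctggCCGTTAccacagcttgca
BEGAIN, chr14:100568685-100568714, plus strand: acccacccgccgCCGTTAaccttgtgggcg
ZEB1, chr10:31319553-31319582, plus strand: cgcctccctggaCCGTTAgccggcgccgac

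The AAAS stretch lies 17 bases before its RefSeq start, that of CCDC88A 2 bases before and that of BUB1B 31 bases before. Those of NRG2, BEGAIN and ZEB1 lie 222, 209 and 203 bases before a RefSeq start. BEGAIN also had CCGTTA at positions −25 and 23 from another RefSeq start, and only the match furthest before a start was printed. The ZEB1 stretch lies downstream of other RefSeq starts of that gene. These distances therefore depend on the start and match taken. AAAS, which encodes the nuclear pore protein aladin, was at 58.9, 63 and 60.9 CPM in the mCherry libraries and 8.0, 10.4 and 8.06 in the OVOL2 libraries (log2 fold change −2.78, SE 0.22, adjusted p = 2.43e-06). BUB1B, a kinase of the spindle checkpoint, was at 34.1, 47.1 and 44.5 against 14.7, 16.3 and 15.9 CPM (log2 fold change −1.42, SE 0.16, adjusted p = 4.26e-05). For a riser, the 250 bases before the RefSeq start of CRB3 are printed with 5 copies of CACCTG, read on either strand, in capitals (GRCh38.p14, chr19:6464021-6464270, plus strand). The same window also holds CCGTTA, in lower case, 153 bases before the start.
CRB3: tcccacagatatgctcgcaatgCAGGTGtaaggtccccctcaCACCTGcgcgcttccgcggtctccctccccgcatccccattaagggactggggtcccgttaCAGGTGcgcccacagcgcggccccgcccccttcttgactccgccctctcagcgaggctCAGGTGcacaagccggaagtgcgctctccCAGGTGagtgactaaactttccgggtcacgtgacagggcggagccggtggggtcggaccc

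Epithelial genes rose more often than they fell. Of 97 tested genes on the 8 epithelial lists combined, 32 were higher and 6 lower (39.2% called, against 13.9% of all genes tested), with a median log2 fold change of 0.56. CDH1, the E-cadherin of adherens junctions, went from 6.29, 7.09 and 3.31 CPM to 42.7, 16.4 and 24.7 (log2 fold change 2.31, SE 0.35, adjusted p = 0.000617). Its OVOL2 libraries differed from each other by more than its mCherry libraries did, without overlap between groups. ESRP1, which directs epithelial splicing, went from 2.25, 0.394 and 2.07 to 14, 17.9 and 16.8 CPM (log2 fold change 3.38, SE 0.60, adjusted p = 0.00187), and its relative ESRP2 from 8.31, 12.2 and 9.11 to 21, 22.9 and 16.4 CPM (log2 fold change 1.02, SE 0.22, adjusted p = 0.00664). GRHL2, a partner transcription factor of epithelial genes, had at most 4 counts in any of the 6 libraries and was not tested.

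Of 14 tested adherens junction and adhesion genes, 4 were higher (EPCAM, JUP, CDH1 and CTNNA1) and 2 lower (42.9% called). JUP, which encodes plakoglobin, went from 49.4, 42.4 and 60.9 to 133, 158 and 204 CPM (log2 fold change 1.7, SE 0.22, adjusted p = 0.000154). CTNNA1, alpha-catenin, changed by 0.68 (adjusted p = 0.00718). CDH2, the N-cadherin of mesenchymal and neural cells, fell from 6.96, 6.89 and 6.62 to 3.0, 1.92 and 0.977 CPM (log2 fold change −1.79, SE 0.42, adjusted p = 0.0112), so the classical cadherins moved in opposite directions. Of 15 tested tight junction genes 6 passed (40% called), each of them higher, and 4 of the 6 passed in every fit that left a library out. LSR, a tricellular junction protein, rose from 24.9, 24.8 and 19.7 to 70.7, 71.4 and 75.7 CPM (log2 fold change 1.65, SE 0.16, adjusted p = 1.01e-05). CLDN7 rose from 21.1, 21.3 and 15.5 to 75.7, 96.1 and 93.5 CPM (log2 fold change 2.2, SE 0.22, adjusted p = 1.72e-05) and CLDN3 from 7.86, 8.67 and 8.28 to 42, 52.9 and 40.5 CPM (log2 fold change 2.45, SE 0.32, adjusted p = 0.000154). F11R, the junctional adhesion molecule A, rose by 1.11 (adjusted p = 8.82e-05).

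Polarity and epithelial trafficking had 9 higher and 1 lower of 19 tested genes (52.6% called), 8 of the 9 in every leave-out fit. EPS8L1, an actin regulator, went from 4.27, 2.76 and 2.9 to 13, 19.5 and 14.7 CPM (log2 fold change 2.26, SE 0.26, adjusted p = 5.89e-05), and LLGL2, a basolateral polarity protein, from 13.3, 14.6 and 17 to 32, 42.3 and 44.9 CPM (log2 fold change 1.41, SE 0.17, adjusted p = 6.45e-05). In the surface serine protease system 4 of 11 tested genes passed (36.4% called), each of them higher. ST14, which encodes matriptase, went from 0.225, 0.394 and 0.207 to 3.25, 5.47 and 3.66 CPM (log2 fold change 3.79, SE 0.62, adjusted p = 0.00106), and SPINT1, the inhibitor that holds matriptase in check, from 7.41, 6.3 and 8.28 to 57.7, 57.7 and 61 CPM (log2 fold change 3.0, SE 0.29, adjusted p = 1.02e-05). PRSS22 rose by 2.63 (adjusted p = 7.43e-06) and TMPRSS2 by 2.17 (adjusted p = 0.0064). ST14 stood under 1 CPM in each mCherry library, so the size of its rise rests on few counts. Protease and inhibitor rose side by side in the same libraries.

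Of 15 tested epithelial transcription factors 4 passed (26.7% called), each of them higher. GRHL3, a grainyhead factor, went from 0.899, 0.591 and 0.621 to 5.25, 5.47 and 7.33 CPM (log2 fold change 3.05, SE 0.49, adjusted p = 0.000827) and TFAP2A from 84.5, 106 and 90.3 to 154, 135 and 182 CPM (log2 fold change 0.75, SE 0.16, adjusted p = 0.00516). GRHL3 was under 1 CPM in every mCherry library, so its fold change rests on few counts. Keratins were mixed. The hair-type keratin KRT81 rose from 3.59, 2.95 and 4.97 to 23.2, 28.8 and 21.2 CPM (log2 fold change 2.67, SE 0.25, adjusted p = 9.82e-06), with KRT86 a near-identical copy that can share its reads, and KRT80 from 23.1, 31.5 and 23.8 to 51.7, 65.7 and 58.8 CPM (log2 fold change 1.17, SE 0.18, adjusted p = 0.000701), while KRT19, the keratin of pancreatic ducts, was lower (245, 234 and 246 against 129, 194 and 168 CPM, log2 fold change −0.56, SE 0.14, adjusted p = 0.0197). The calls of KRT19 and KRT86 did not hold in every leave-out fit. Of 8 tested desmosome genes 2 passed (25% called), and both were lower. PERP, a desmosomal and p53-regulated membrane protein, fell from 182, 157 and 205 to 49, 90.2 and 62.5 CPM (log2 fold change −1.43, SE 0.21, adjusted p = 0.000428). The fall of PKP2 came from mCherry replicate 2 (8.09, 434 and 2.48 CPM against 7.25, 7.69 and 6.1), and its change was 0.42 (adjusted p = 0.737) without that library.

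**Figure D3:**
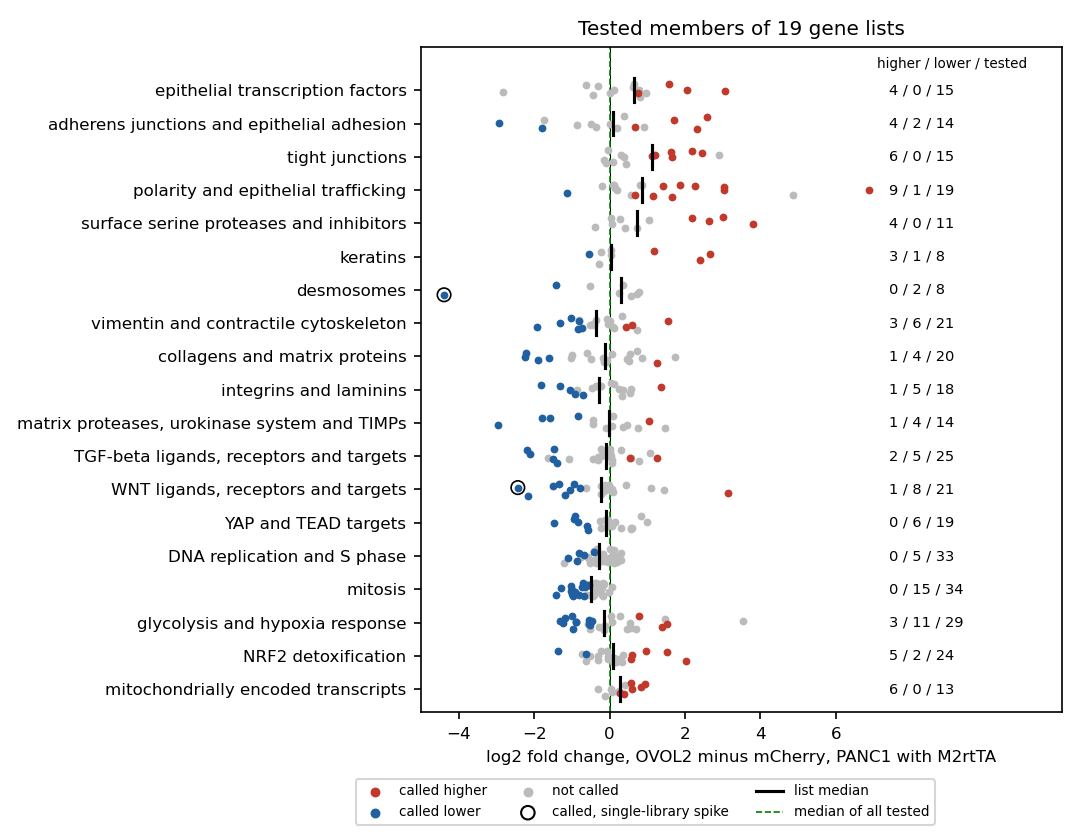
Log2 fold change (OVOL2 minus mCherry, PANC1 with M2rtTA) of each tested member of 19 gene lists. Red and blue points passed the test, grey points did not, rings mark single-library spikes, black bars are list medians and the dashed line is the median of all genes tested (0.02). The numbers at the right give members higher, lower and tested, and the tight junction, polarity and mitosis rows stand furthest to their sides.

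EMT transcription factors moved in both directions, with 1 higher and 2 lower of 7 tested (42.9% called) from 12 in the table. ZEB1, the E-box repressor that OVOL2 is known to restrain, fell from 20.4, 25.6 and 11.2 to 7.5, 4.73 and 4.64 CPM (log2 fold change −1.77, SE 0.34, adjusted p = 0.00302). FOXC2 fell from 27, 25.8 and 26.9 to 7.25, 13.5 and 15.9 CPM (log2 fold change −1.12, SE 0.21, adjusted p = 0.00278). TWIST2, by contrast, was higher, at 1.12, 1.77 and 1.66 against 3.5, 7.54 and 10.3 CPM (log2 fold change 2.2, SE 0.48, adjusted p = 0.00749).

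Mesenchymal genes fell more often than they rose: over 4 lists with 73 tested genes, 6 were higher and 19 lower (34.2% called, against 13.9% of all genes tested, where 5.76% were higher and 8.18% lower). Of 21 tested cytoskeletal genes, 3 were higher and 6 lower (42.9% called). TPM2, a tropomyosin of stress fibres, went from 959, 905 and 1076 to 343, 436 and 399 CPM (log2 fold change −1.32, SE 0.12, adjusted p = 6.66e-06), and ACTN1, alpha-actinin, changed by −0.73 (adjusted p = 0.00272). MYL9, the regulatory light chain of smooth muscle and non-muscle myosin, went the other way, from 95.5, 98.7 and 116 to 259, 331 and 324 CPM (log2 fold change 1.56, SE 0.15, adjusted p = 1.55e-05).

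Of 20 tested collagen and matrix genes, 4 were lower and 1 higher (25% called). LOXL2, which cross-links collagen, fell from 41.1, 43.3 and 50.3 to 7.5, 11.4 and 9.28 CPM (log2 fold change −2.24, SE 0.19, adjusted p = 4.08e-06), and COL5A2 from 67.6, 78.6 and 74.1 to 24.2, 24 and 23.4 CPM (log2 fold change −1.62, SE 0.14, adjusted p = 3.92e-06). COL3A1 changed by −2.22 (adjusted p = 0.0064). COL1A1, the chief fibrillar collagen, was higher instead, at 21.6, 14.6 and 24.4 against 35.5, 48.8 and 60.6 CPM (log2 fold change 1.26, SE 0.22, adjusted p = 0.00153). The other 9 of the 10 fibroblast markers that include COL1A1 summed to 12.4 to 18.4 CPM in the mCherry and 6.36 to 14 CPM in the OVOL2 libraries. Another fibroblast marker, THY1, fell (−2.33, adjusted p = 0.00309).

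Integrins and laminins had 5 lower and 1 higher of 18 tested (33.3% called). ITGA3, a laminin receptor chain, fell from 188, 185 and 204 to 81.5, 70.4 and 80.8 CPM (log2 fold change −1.31, SE 0.12, adjusted p = 5.44e-06), ITGA5, of the fibronectin receptor, from 45.6, 50.2 and 46.8 to 9.75, 14 and 16.4 CPM (log2 fold change −1.82, SE 0.20, adjusted p = 3.48e-05), and ITGB5 changed by −1.05 (adjusted p = 0.00321). ITGB4, the hemidesmosome chain of epithelial cells, rose from 7.86, 6.89 and 8.07 to 18.2, 22.3 and 18.1 CPM (log2 fold change 1.36, SE 0.32, adjusted p = 0.0107). In the protease and urokinase list, 4 of 14 tested genes were lower and 1 higher (35.7% called). PLAU, which encodes urokinase, fell from 237, 123 and 168 to 23.5, 13.8 and 30.3 CPM (log2 fold change −2.97, SE 0.40, adjusted p = 0.000196). MMP2, a gelatinase, changed by −1.8 (adjusted p = 1.78e-05) and TIMP1, a metalloprotease inhibitor, by −0.83 (adjusted p = 0.00427). PLAU, MMP2 and the inhibitor gene TIMP1 fell in the same libraries.

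Among 25 tested TGF-beta pathway genes 5 were lower and 2 higher (28% called, against 13.9% of all genes tested), and these 7 passed in every leave-out fit. ID1, an early target of BMP and TGF-beta signalling that blocks helix-loop-helix factors, fell from 533, 423 and 503 to 91.2, 140.2 and 86 CPM (log2 fold change −2.2, SE 0.24, adjusted p = 3.69e-05), and ID3 from 37.5, 39 and 45.1 to 10.2, 18.5 and 14.7 CPM (log2 fold change −1.47, SE 0.18, adjusted p = 8.07e-05). LTBP2, a matrix protein of the latent TGF-beta binding family, changed by −2.11 (adjusted p = 2.31e-05) and TGFBI by −1.39 (adjusted p = 8.66e-05). GDF15, a distant ligand of the family that also responds to p53 and stress, rose from 24, 34.5 and 35.6 to 62, 91.4 and 71.3 CPM (log2 fold change 1.26, SE 0.22, adjusted p = 0.00153). Of 19 tested YAP and TEAD targets 6 passed (31.6% called), each of them lower, and 2 of the 6 did so in every leave-out fit. These were NT5E, the ectoenzyme CD73 (89.2, 69.7 and 64.2 against 25, 25.9 and 29.3 CPM, log2 fold change −1.48, SE 0.17, adjusted p = 4.74e-05), and the receptor kinase AXL (212, 312 and 213 against 135, 151 and 97.2 CPM, log2 fold change −0.95, SE 0.21, adjusted p = 0.00845).

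The WNT list had 1 higher and 8 lower of 21 tested (42.9% called, against 13.9% of all genes tested). The higher gene and 5 of the 8 lower ones passed in every leave-out fit. DKK1, FZD5 and FZD7 did not, and FZD5 had a single-library spike in mCherry replicate 1 (490 counts against 81 and 62). WNT9A, a secreted ligand, rose from 5.84, 2.95 and 2.9 to 26.5, 47.3 and 29.1 CPM (log2 fold change 3.15, SE 0.31, adjusted p = 1.54e-05). WNT7B, another ligand, fell from 82.4, 70.9 and 76 to 40.2, 43 and 48.8 CPM (log2 fold change −0.80, SE 0.13, adjusted p = 0.000925), the co-receptor gene LRP5 from 47.2, 33.9 and 42.9 to 20.7, 21 and 18.1 CPM (log2 fold change −1.05, SE 0.18, adjusted p = 0.0018), and SFRP1, a secreted antagonist, changed by −1.19 (adjusted p = 0.00756). Ligands thus differed in direction among themselves. Of 22 tested receptor tyrosine kinases and ligands, 4 were higher and 4 lower (36.4% called). EGFR, the epidermal growth factor receptor, rose from 119, 112 and 94.2 to 214, 219 and 247 CPM (log2 fold change 1.06, SE 0.15, adjusted p = 0.000309) and DDR1, a collagen receptor of epithelial cells, from 10.6, 8.08 and 8.7 to 18.2, 17.4 and 19.3 CPM (log2 fold change 1.01, SE 0.18, adjusted p = 0.00194), while FGFR1 changed by −0.64 (adjusted p = 0.0119). Of 20 MAPK feedback genes, 1 was higher and 3 lower (20% called, nearer to the 13.9% of all genes tested). DUSP5, a phosphatase of nuclear ERK, rose by 1.06 (adjusted p = 0.000915) and FOSL1, an AP-1 subunit, fell from 632, 549 and 896 to 329, 378 and 408 CPM (log2 fold change −0.90, SE 0.16, adjusted p = 0.00229).

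Of 34 tested mitosis genes 15 passed, each of them lower (44.1% called, against 13.9% of all genes tested, where 8.18% were lower). The other 19 did not pass, 33 of the 34 estimates were below 0, and the list median was −0.49. In every leave-out fit 8 of the 15 passed. Beside BUB1B, KIF20A, a kinesin of cytokinesis, fell from 52.6, 61.5 and 65.4 to 30.7, 32.7 and 25.9 CPM (log2 fold change −1.0, SE 0.14, adjusted p = 0.000334), CDC20, the activator of the anaphase-promoting complex, from 78, 69.7 and 90.9 to 34.2, 42.4 and 41.5 CPM (log2 fold change −1.01, SE 0.15, adjusted p = 0.000586), and MAD2L1, of the spindle checkpoint, from 33.2, 26 and 23.6 to 11, 7.98 and 15.1 CPM (log2 fold change −1.29, SE 0.22, adjusted p = 0.00123). Each fall was about 2-fold or a little more, with no overlap between groups. Of 33 tested DNA replication and S phase genes 5 passed, each of them lower, which is 15.2% and close to the 13.9% called among all genes tested. PCNA, the sliding clamp of DNA polymerase, changed by −0.82 (adjusted p = 0.00278), MCM3, of the replicative helicase, by −0.67 (adjusted p = 0.00276) and RFC5, of the clamp loader, by −1.1 (adjusted p = 0.00655). Of 16 tested p53 targets and cell cycle inhibitors, 3 were higher and 1 lower (25% called). In these bulk libraries, fewer dividing cells and less transcript per dividing cell cannot be told apart.

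The glycolysis and hypoxia list had 11 lower and 3 higher of 29 tested (48.3% called, against 13.9% of all genes tested), with a list median of −0.15 and 17 of the 29 estimates below 0, and 7 of the 11 passed in every leave-out fit. LDHA, which turns pyruvate into lactate, went from 661, 576 and 676 to 282, 267 and 297 CPM (log2 fold change −1.18, SE 0.11, adjusted p = 9.76e-06), and GAPDH from 1238, 1061 and 1362 to 504, 517 and 546 CPM (log2 fold change −1.22, SE 0.14, adjusted p = 4.13e-05). PKM, pyruvate kinase, went from 1154, 1269 and 1265 to 631, 640.4 and 615 CPM (log2 fold change −0.97, SE 0.10, adjusted p = 2.62e-05), and HK1, hexokinase, from 19.3, 17.1 and 21.7 to 8.75, 7.1 and 7.57 CPM (log2 fold change −1.32, SE 0.21, adjusted p = 0.000892). The higher members were not enzymes of the pathway: SLC2A1, the glucose transporter GLUT1 (16.6, 17.9 and 16.4 against 43.2, 43.5 and 47.9 CPM, log2 fold change 1.4, SE 0.27, adjusted p = 0.00302), and ADM, the hypoxia-induced peptide adrenomedullin (0.78, adjusted p = 0.00413), are 2 of the 3, and the third was NDRG1, a stress gene whose call held in 1 of the 6 leave-out fits. SLC2A1 and ADM were looked up after their values were seen.

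Of 30 tested ATF4 amino acid response genes, 2 were higher and 5 lower (23.3% called, against 13.9% of all genes tested). PHGDH, which opens serine synthesis, fell from 176, 155 and 169 to 71, 47.9 and 59.6 CPM (log2 fold change −1.49, SE 0.17, adjusted p = 4.31e-05), SHMT2, of mitochondrial one-carbon metabolism, from 51.9, 30.1 and 30.2 to 11.2, 11.1 and 13.9 CPM (log2 fold change −1.63, SE 0.25, adjusted p = 0.000667), and ASNS, asparagine synthetase, changed by −0.72 (adjusted p = 0.00694). ATF3, a stress-induced transcription factor on the same list, rose from 3.15, 4.53 and 5.18 to 7.75, 11.4 and 13.4 CPM (log2 fold change 1.33, SE 0.25, adjusted p = 0.00302). NRF2 detoxification had 5 higher and 2 lower of 24 tested (29.2% called). HMOX1, heme oxygenase, rose from 26.3, 21.9 and 25.5 to 76, 60.2 and 76.7 CPM (log2 fold change 1.53, SE 0.19, adjusted p = 9.58e-05), OSGIN1 changed by 2.02 (adjusted p = 0.0018) and NQO1, a quinone reductase, by 0.96 (adjusted p = 0.00247). Cholesterol and fatty acid synthesis had 3 higher and 3 lower of 31 tested (19.4% called, nearer to the share among all genes). FADS2, a fatty acid desaturase, changed by −2.48 (adjusted p = 0.00292) and was the 1 call of the 6 that held in every leave-out fit.

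Interferon-induced genes had 3 higher and 2 lower of 31 tested, which is 16.1% called and close to the share among all genes tested. IFITM3 fell with IFITM2, from 700.5, 715 and 745 to 331, 376 and 348 CPM (log2 fold change −1.03, SE 0.12, adjusted p = 4.26e-05), while ISG15, a ubiquitin-like modifier, was at 70.1, 59.7 and 48 against 82.2, 117 and 100.4 CPM (log2 fold change 0.75, SE 0.17, adjusted p = 0.00821) and DDX58, which encodes the RNA sensor RIG-I, changed by 1.1 (adjusted p = 0.0118). In MHC class I presentation 3 of 17 tested genes were higher and 1 lower (23.5% called, against 13.9% of all genes tested). HLA-C rose from 100.0, 97.3 and 81.4 to 209, 233 and 226 CPM (log2 fold change 1.26, SE 0.15, adjusted p = 7.43e-05) and HLA-E from 57.7, 50.8 and 60.2 to 114, 129 and 137 CPM (log2 fold change 1.17, SE 0.15, adjusted p = 0.000126), while TAP2, a peptide transporter subunit, changed by −0.96 (adjusted p = 0.0024). Reads of one HLA gene can be shared with another of the family, so the split between HLA-C and HLA-E is uncertain. Of 17 NF-kB and secreted inflammatory genes 2 were higher and 1 lower (17.6% called, close to the share among all genes tested). The lower gene was the monocyte chemokine CCL2 (232, 224 and 276 against 77, 119 and 67.9 CPM, log2 fold change −1.47, SE 0.28, adjusted p = 0.00272).

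Of the 13 mitochondrially encoded messenger RNAs 6 passed, each of them higher (46.2% called, against 13.9% of all genes tested). In every leave-out fit 5 of the 6 passed. ND4, of respiratory complex I, went from 32058, 28813 and 28298 to 49882, 54059 and 55493 CPM (log2 fold change 0.84, SE 0.08, adjusted p = 1.15e-05), ND6 from 4340.4, 4865 and 4177 to 8568, 8877 and 8355 CPM (log2 fold change 0.95, SE 0.11, adjusted p = 8.15e-05), and COX2, of complex IV, from 17271, 17846 and 16610.5 to 24763, 26282 and 25673 CPM (log2 fold change 0.57, SE 0.07, adjusted p = 0.000114). ND6 lies on the opposite strand from most of the others, so that without strand in the counting its reads could not be told apart from those of the other strand. Untreated PANC1, for which the labels give no virus, puromycin or doxycycline, averaged 25895 CPM (SD 732, n = 3) for COX2. This was near the OVOL2 mean of 25573. For COX3 the means were 25253 CPM (SD 589, n = 3) untreated, 17094 with mCherry and 25812 with OVOL2. The share of the 13 genes together was 25.9, 27.0 and 25.8% in untreated PANC1, nearer to that of the mCherry libraries. All these values are relative to each library's total, and the mitochondrial share is also a common measure of RNA quality, whose part in these rises was not tested. With the 13 genes taken out before scaling, 1833 genes passed (800 higher, 1033 lower), among them 1788 of the 1843 with the same sign. Of 20 heat shock and unfolded protein response genes 4 passed, each of them higher (20% called, against 13.9% of all genes tested), and 1 of the 4 did so in every leave-out fit. This was CRELD2, an endoplasmic reticulum stress gene (7.19, 7.09 and 9.52 against 12.5, 21 and 21.7 CPM, log2 fold change 1.22, SE 0.28, adjusted p = 0.0101).

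Differentiation lists differed in how many members passed. Of 18 tested genes of the classical and gastrointestinal list 1 passed (5.56%, against 13.9% of all genes tested), the mucin MUC1, which was lower (5.62, 4.53 and 4.35 against 0.50, 1.48 and 2.44 CPM, log2 fold change −1.69, SE 0.40, adjusted p = 0.0111). Of 8 tested ductal markers 2 passed, MUC1 and KRT19, both lower (25% called), with summed ductal levels of 2256 to 2625 CPM in the mCherry and 1839 to 2186 in the OVOL2 libraries. MUC1 passed in every leave-out fit and KRT19 did not, and 0 ductal markers passed when the fit held only the 6 libraries compared. Of 10 tested S100 genes 3 passed, each of them lower (30% called, list median −0.50), 1 of them in every leave-out fit, with S100A16 going from 41.8, 37 and 27.1 to 9.75, 7.54 and 11.7 CPM (log2 fold change −1.88, SE 0.21, adjusted p = 4.92e-05). Cathepsins and cystatins had 3 higher and 1 lower of 14 tested (28.6% called). CTSA, the protective protein of lysosomal galactosidase, rose by 1.1 (adjusted p = 0.000606), while CTSL, the close relative of CTSV, fell from 15.3, 21.1 and 22.8 to 9.0, 9.02 and 9.03 CPM (log2 fold change −1.13, SE 0.21, adjusted p = 0.00231). The CTSV and CTSL genes are similar in sequence, and counts between them could be shared. None of 11 tested gasdermins and caspases passed edgeR's test, with 1 at an unadjusted p under 0.05 and 0 by DESeq2.

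Single-library spikes were checked gene by gene, because a gene read far more often in 1 library than in its mates can pass a test of means. A spike was taken as a library with at least 50 counts and at least 5 times the CPM of both mates of its group. Of the 13218 genes tested, 156 had such a spike in the 6 libraries (1.18%), and 38 of the 1843 called genes did (2.06%). The side of the spike matched the sign in each: the 27 lower genes had it in an mCherry library and the 11 higher genes in an OVOL2 library. A spike raises the mean of its own group, so this match largely follows from the definition. By library, mCherry replicates 1, 2 and 3 carried 13, 12 and 2 of the called ones, and OVOL2 replicates 1, 2 and 3 carried 6, 3 and 2. Spiked genes held 1.21 to 3.57% of the counts of a library.

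By the ratio to its mates, the largest spike among called genes was in MYO3B, a myosin, with 32541 counts in mCherry replicate 1 against 27 and 8 in its mates and 11, 6 and 1 in the OVOL2 libraries. Its fitted log2 fold change of −10.9 was −1.47 (adjusted p = 0.626) without that library. ENTPD1, which encodes the ectonucleotidase CD39, had more counts but a smaller ratio, with 68447 counts in mCherry replicate 2 against 113 and 33, and 30, 36 and 20 in OVOL2. Its change of −9.58 was −1.45 (adjusted p = 0.0594) without replicate 2. MIXL1 had 8334 counts in the same library against 19 and 24, and its change went from −7.14 to −0.25 (adjusted p = 0.935). SLC36A2 had 2501 counts in mCherry replicate 1 against 9 and 4, and its change went from −8.09 to −0.95 (adjusted p = 0.589). TTLL5 had 26802 counts in OVOL2 replicate 2 against 80 and 110, and 38, 103 and 177 in mCherry, and its change went from 5.93 to 0.11 (adjusted p = 0.966). For all 5 genes the call was lost with the 1 library.

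Over the 38 called genes with a spike, 3 passed with the same sign in every fit that left a library out, against 875 of the 1805 called genes without a spike. The spiked genes also tended to recur. Of the 38, 26 (68.4%) had a spike in at least 1 of the 15 other groups of the series, against 547 of the 13062 tested genes without a spike in these 6 libraries (4.19%). Every group of the series had some, from 63 to 127 tested genes, with 106 in the mCherry and 63 in the OVOL2 group compared here. Nothing in the labels or column names separates the spiked libraries, and the cause of the spikes was not tested. Without these genes 1805 calls are left, 751 higher and 1054 lower.

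**Figure D4:**
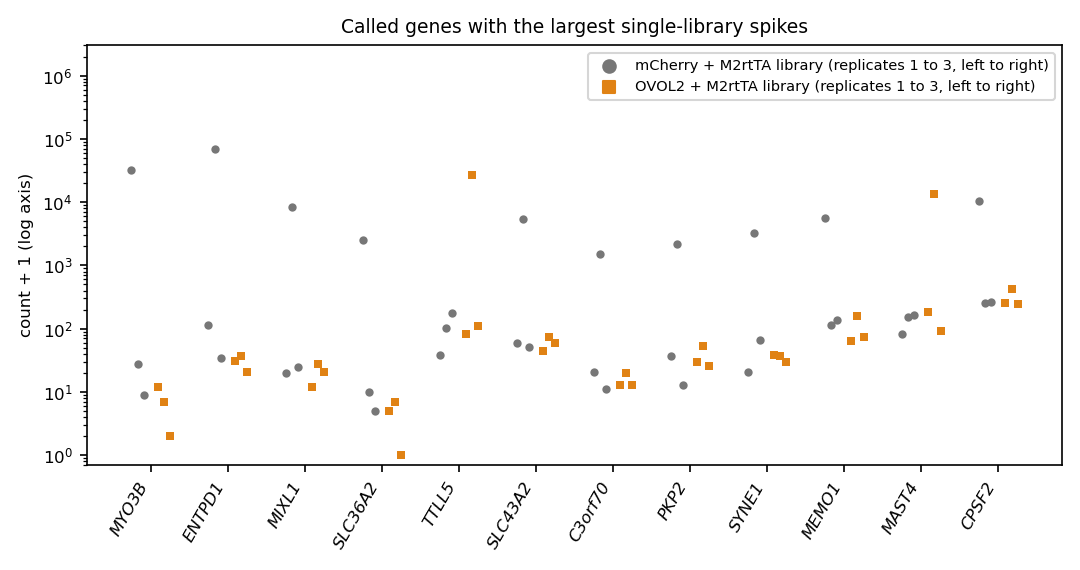
Counts plus 1 on a log axis in the 3 mCherry libraries (grey circles) and 3 OVOL2 libraries (orange squares) for the 12 called genes with the largest single-library spikes. In each gene 1 point stands far above the other 5, on the mCherry side for genes called lower and on the OVOL2 side for genes called higher.

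The OVOL2 response was next set beside that of PANC1 cells without M2rtTA, which have their own 3 mCherry libraries. Without M2rtTA, 671 genes passed (5.08%), 280 higher (2.12%) and 391 lower (2.96%). Of those 280, 268 had the same sign with M2rtTA and 183 also passed there, and of the 391 lower genes 367 had the same sign and 285 also passed. The genes that rose without M2rtTA had a median log2 fold change of 0.97 there and 0.84 with it, and those that fell had −1.07 in both arms. Among the genes called with M2rtTA, the 762 higher had medians of 0.95 with it and 0.46 without, and the 1081 lower −1.05 and −0.49. In each case the arm that chose the genes is one of those compared, so these medians are descriptions. VIM, for example, changed by −2.05 without and −1.92 with M2rtTA, KDF1 by 3.03 and 3.05, EPCAM by 2.52 and 2.58, and ZEB1 by −2.3 and −1.77.

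The difference of the 2 effects was tested gene by gene, and 18 genes passed (0.136%), 7 with a higher (0.053%) and 11 with a lower value with M2rtTA (0.0832%). Few libraries carry this count, which fell to 6 without mCherry + M2rtTA replicate 1, to 6 without its replicate 2, and to 8 and 9 without OVOL2 + M2rtTA replicates 2 and 1. ALPG changed by 3.9 with and 0.55 without M2rtTA, a difference of 3.35, SE 0.30, adjusted p = 0.000123. NID1 changed by 2.51 and 0.35 (2.16, SE 0.26, adjusted p = 0.00293), CTSV by 4.69 and 1.93 (2.75, SE 0.23, adjusted p = 0.000123), and SUSD2 by 4.89 and 2.39 (2.5, SE 0.27, adjusted p = 0.00115). In the other direction TPM2 changed by −1.32 with and −0.05 without M2rtTA (−1.27, SE 0.17, adjusted p = 0.00572), and AAAS by −2.78 and −0.76 (−2.01, SE 0.30, adjusted p = 0.0146). ALPG and NID1, both among the 12 leading risers, were not called when M2rtTA was absent (adjusted p = 0.164 and 0.344).

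KP4 and PK45H, transduced the same way with M2rtTA, had 3154 (21.1%) and 2367 (15.8%) of 14943 genes called in a fit of all 45 libraries of the 3 lines. The effect in PANC1 differed from that in KP4 for 585 genes (3.91%), or 376 without either KP4 mCherry + M2rtTA replicate 1 or PANC1 mCherry + M2rtTA replicate 1, 385 without KP4 mCherry + M2rtTA replicate 2 and 388 without PANC1 mCherry + M2rtTA replicate 2. It differed from that in PK45H for 611 (4.09%). In that fit SUSD2 changed by 4.9 in PANC1 and by 0.15 in KP4, a difference of 4.75, SE 0.47, adjusted p = 6.12e-08. PADI2 rose in both, by 3.64 and 1.4 (2.23, SE 0.26, adjusted p = 1.87e-06). ISG15 was the gene with the smallest p, at 0.77 in PANC1 and 3.61 in KP4 (−2.84, SE 0.20, adjusted p = 1.14e-11). S100A16 and IFITM3 changed sign between the lines, with −1.87 against 0.76 (−2.63, SE 0.31, adjusted p = 1.87e-06) and −1.02 against 0.70 (−1.73, SE 0.20, adjusted p = 1.87e-06).

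Against PK45H, CTSV changed by 4.7 in PANC1 and 1.19 in PK45H (3.51, SE 0.32, adjusted p = 2.52e-09), and SYT5 by 3.13 and 0.48 (2.66, SE 0.33, adjusted p = 1.55e-06). KRT19 fell in PANC1 (−0.55) and rose in PK45H (1.9), a difference of −2.45, SE 0.20, adjusted p = 3.16e-10. LCN2, the iron-binding inflammatory protein lipocalin 2, was not called in PANC1 (5.39, 5.91 and 4.14 against 4.5, 4.29 and 3.91 CPM) and rose by 4.18 in PK45H (−4.45, SE 0.38, adjusted p = 9.63e-10). ITGA3 was −1.3 in PANC1 against −0.07 in KP4 and 0.42 in PK45H, with differences of −1.24, SE 0.16, adjusted p = 4.78e-06 and −1.72, SE 0.16, adjusted p = 2.26e-09. The fall of ITGA3 was thus larger in PANC1 than the change in either other line.

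**Figure D5:**
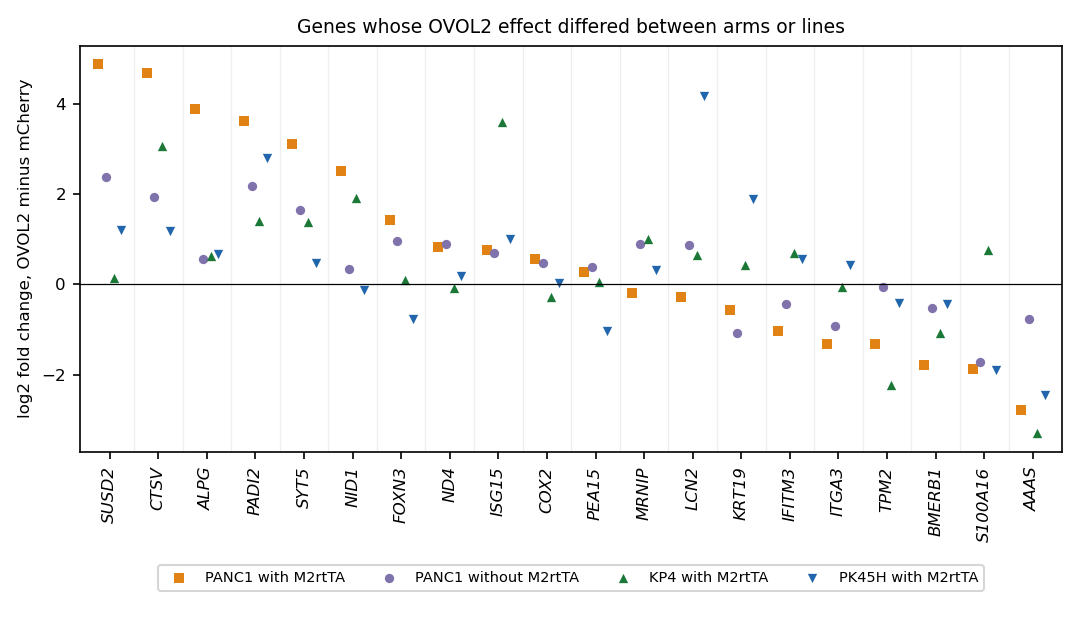
Log2 fold change (OVOL2 minus mCherry) of 20 genes whose OVOL2 effect differed between PANC1 with and without M2rtTA, or between PANC1 and KP4 or PK45H with M2rtTA. PANC1 values (orange squares with M2rtTA, purple circles without) come from the fit of 15 PANC1 libraries, and KP4 (green triangles) and PK45H (blue triangles) from the fit of 45 libraries. ALPG stands at 3.9 in PANC1 with M2rtTA and below 1 in the other 3, and ISG15 is highest in KP4.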

How the data were processed

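Total RNA (100 ng per library) was profiled by PLATE-seq. The authors deposited raw counts per gene symbol for 25421 symbols and 51 libraries, without normalisation. The submitters' processing notes name kallisto 0.44.0 and GRCh38, and the handling of molecular identifiers is not given in the sources used here, so counts may include amplification copies and intervals cover counting error alone. Groups came from titles and 0 columns were unmatched. Counts were analysed with edgeR 4.0.16 in R 4.3.3: filterByExpr by group, TMM scaling and two-sided quasi-likelihood tests over the 15 PANC1 libraries in 5 groups (10 residual degrees of freedom), or over 45 libraries in 15 groups for the other lines. Each SE of a log2 fold change or difference was derived as its absolute value divided by the square root of the quasi-likelihood F statistic. DESeq2 1.42.0 was an alternative. Scripts were tested on simulated data. CPM use TMM-scaled totals, and a pseudocount of 1 applies to the OVOL2 permutation test.

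Named genes were VIM, ZEB1, CDH1, EPCAM, ESRP1, GRHL2 and OVOL2, the 12 per direction with the smallest p (mean of at least 5 CPM, no overlap, no spike), the 8 with the largest change, up to 4 per list, the 5 largest spikes and 4 per direction of each difference test. Members and the 41 gene lists were chosen with earlier results of these data known, so lists are described by counts without a test. Tables of promoter windows came from RefSeq (GRCh38.p14), and 24602 of the 25421 symbols matched its gene table. Some genes that these rules select are not reported here.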

Additional observations from a re-analysis of the deposited data

Results flagged for a closer look

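Each result here is a difference in the OVOL2 effect between arms or lines that passed edgeR's test of the difference itself. Values are differences of log2 fold changes, first minus second.

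With M2rtTA minus without it in PANC1, 18 genes differed. The positive values with the smallest p were CTSV (2.75), ALPG (3.35), SUSD2 (2.50) and NID1 (2.16). The leading negative values were TPM2 (−1.27), BMERB1 (−1.27), AAAS (−2.01) and MRNIP (−1.08). MRNIP, a DNA repair factor, stood at 118, 114 and 115 CPM in mCherry and 88.5, 112 and 106 in OVOL2 libraries with M2rtTA and was not called there (−0.18, adjusted p = 0.359), while it rose by 0.90 without M2rtTA.

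Between PANC1 and KP4 with M2rtTA, 585 genes differed. The 4 leading positive differences were SUSD2 (4.75), PADI2 (2.23), ND4 (0.93) and COX2 (0.85), and the 4 leading negative ones ISG15 (−2.84), S100A16 (−2.63), IFITM3 (−1.73) and ITGA3 (−1.24). ND4 and COX2 rose in PANC1 and were −0.09 and −0.27 in KP4.

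Between PANC1 and PK45H, 611 genes differed. Positive differences were led by CTSV (3.51), SYT5 (2.66), PEA15 (1.32) and FOXN3 (2.19), and the leading negative ones included KRT19 (−2.45), LCN2 (−4.45) and ITGA3 (−1.72). PEA15, a regulator of ERK localisation and apoptosis, was not called in PANC1 (0.27, adjusted p = 0.145) and fell by 1.04 in PK45H. FOXN3, a forkhead repressor, rose in PANC1 (7.64, 12.8 and 8.49 against 24.5, 23.8 and 29.5 CPM, log2 fold change 1.42, SE 0.24, adjusted p = 0.00116) and was −0.76 in PK45H.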

How the results depend on the processing

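The count of 1843 changed genes ranged from 1480 to 2077 over RLE scaling, robust dispersion, a minimum mean count of 10, no filter, DESeq2, thinning to the smallest total, the fit of 45 libraries and the replicate block, was 1206 when the fit held only the 6 libraries compared (the fewer residual degrees of freedom of that fit are part of its construction), and 1241 to 1555 with 1 of the 6 libraries left out. Chosen after seeing the data, leaving out genes with a single-library spike gave 1805, and leaving out the 13 mitochondrially encoded messenger RNAs gave 1833. The 18 genes that differed with M2rtTA were 131 by DESeq2, 10 with the replicate block, 6 after thinning and 6 to 19 with 1 library left out. The 585 that differed from KP4 were 362 without a filter, 218 after thinning and 376 to 479 with 1 library left out, and the 611 that differed from PK45H were 277 after thinning and 430 to 574. The cause of these moves was not tested. The OVOL2 difference of 0.82 was 0.64 to 1.08 with 1 library left out. PKP2 changed sign, to 0.42, without mCherry + M2rtTA replicate 2, and was as low as −4.95 without replicate 3. Of the named genes' alternative values, 2565 kept direction and call, 172 lost the call and 1 reversed. The replicate block was fitted because groups share replicate numbers, and gave 1667 changed genes, 531 for KP4 and 575 for PK45H. Same-numbered libraries deviated with correlations of −0.00078, −0.030 and −0.059, and differently numbered ones with −0.066 to 0.091. These deviations are from means of 3 libraries and include counting noise. They therefore cannot show whether same-numbered libraries shared a culture or batch. At these depths, genes below the filter, GRHL2 among them, were not testable.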
